A study of Mus musculus with 12 samples.

Results

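The 10 mouse genes described here encode plasma proteins that the liver secretes and that belong to the acute-phase response, namely orosomucoid (Orm1, Orm2 and Orm3), the serine protease inhibitors Serpina3n and Serpina3m, the inter-alpha-trypsin inhibitor heavy chains Itih3 and Itih4, the pentraxins Apcs and Crp, and haptoglobin (Hp). Every probe that the array annotation assigns to these symbols was taken, whatever its values, which gave 15 of the 45281 probes on the array and covered 9 of the 10 genes; the annotation places no probe under Serpina3m. Of the 15 probes, 13 probes of 8 genes were detected (detection p under 0.01) on at least 1 array and entered the tests, each of them on all 12 arrays. The Orm3 probe and the second Crp probe were detected on 0 of 12 arrays and were not tested.

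Livers of 12 mice aged 7 weeks were profiled singly on Illumina MouseWG-6 v2 BeadChips, 3 in each of 4 groups: Tmprss6 KO mice given LPS (KO LPS), wild-type iron-deficient littermates given LPS (IDA LPS), Tmprss6 KO mice given saline (KO UT) and iron-deficient littermates given saline (IDA UT). All mice were of the mixed 129/Ola × C57BL/6 strain, LPS from Escherichia coli O26:B6 was injected at 0.1 mg/kg, and livers were taken 6 hours after the injection. Tmprss6 encodes the liver protease that holds hepcidin, the hormone of iron retention, in check. The KO mice ate an iron-replete diet and the littermates an iron-deficient one for 3 weeks from the age of 4 weeks, so that genotype and diet cannot be told apart in any comparison of KO with IDA livers. The 3 livers of a group came from different mice.

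The acute-phase response is the change in hepatic protein synthesis that follows infection or injury. Endotoxin makes macrophages release interleukin 1 and interleukin 6, and these act on hepatocytes mainly through NF-kB, STAT3 and C/EBP factors to raise the synthesis of such plasma proteins. In mice serum amyloid A, orosomucoid and serum amyloid P (Apcs) are among the strong responders, whereas Crp, the main acute-phase reactant of humans, is known as a weak one.

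Across the series, 12641 to 14423 probes per liver were detected at a median raw signal of 129.7 to 151, and the ranges of detected probes were 13544 to 14423 in KO LPS, 12641 to 13089 in IDA LPS, 12986 to 14334 in KO UT and 12721 to 13272 in IDA UT livers. Tmprss6 had lower log2 intensities in every KO liver, at 7.72 to 7.90 in KO LPS against 9.43 to 10.46 in IDA LPS and at 8.16 to 8.39 in KO UT against 10.29 to 11.21 in IDA UT livers. Hepatocyte markers were bright in every group, with 12 of 14 tested; Fabp1 was below detection on its 1 probe, and Tf has no probe under its symbol. Although the study describes its KO mice as males, 3 untreated livers (KO UT 1, KO UT 2 and IDA UT 1) had log2 intensities of 11.84 to 12.05 for Xist, which is transcribed from the inactive X of females, and the other 9 had 4.80 to 6.73. Results of the member probes that rest on untreated livers are therefore given with and without these 3 livers where their call changes. Results of all other genes are given from the fit of all 12 livers only. Since whole liver was measured, fewer cells of a type and less RNA per cell cannot be told apart.

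The 3 orosomucoid genes lie side by side on chromosome 4 (GRCm38.p6; Orm1 63344556 to 63348163, Orm3 63356069 to 63359506 and Orm2 63362449 to 63365877). Itih4 (30886476 to 30901986) and Itih3 (30908572 to 30923787) are neighbours on chromosome 14, and both pentraxin genes lie on chromosome 1, with Crp at 172698056 to 172699966 and Apcs at 172893961 to 172895054. Serpina3n occupies 104406646 to 104414334 on chromosome 12 and Hp occupies 109575128 to 109579172 on chromosome 8. RefSeq promoter windows were matched for 7 of the 10 genes. The 250 bases upstream of the start are shown for the 4 genes whose window lies wholly outside the gene model. They include the genes with the largest LPS ratios, Orm2 and Apcs, next to Itih4 and Crp with smaller ones. Capitals mark matches, on either strand, to the motifs TTNNGNAA (C/EBP core), TTCNNNGAA (STAT element), CTGGGAA (type 2 interleukin 6 element), GGG and CC parted by any 5 bases (NF-kB element) and TGTTCT (glucocorticoid element core). The strings run 5′ to 3′ on the gene's own strand. They cover chr4:63362199-63362448 on the plus strand for Orm2, chr1:172895055-172895304 on the minus strand for Apcs, chr14:30886226-30886475 on the plus strand for Itih4 and chr1:172697806-172698055 on the plus strand for Crp.
Orm2: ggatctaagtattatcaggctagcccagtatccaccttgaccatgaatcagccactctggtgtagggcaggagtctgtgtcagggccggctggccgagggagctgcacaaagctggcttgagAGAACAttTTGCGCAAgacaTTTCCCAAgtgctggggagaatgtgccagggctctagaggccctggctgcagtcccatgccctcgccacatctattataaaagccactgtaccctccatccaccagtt
Apcs: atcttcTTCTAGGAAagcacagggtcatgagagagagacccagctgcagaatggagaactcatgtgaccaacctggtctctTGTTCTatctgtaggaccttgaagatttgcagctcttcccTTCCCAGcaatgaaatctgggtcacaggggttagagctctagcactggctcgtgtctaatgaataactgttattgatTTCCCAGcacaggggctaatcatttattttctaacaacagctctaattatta
Itih4: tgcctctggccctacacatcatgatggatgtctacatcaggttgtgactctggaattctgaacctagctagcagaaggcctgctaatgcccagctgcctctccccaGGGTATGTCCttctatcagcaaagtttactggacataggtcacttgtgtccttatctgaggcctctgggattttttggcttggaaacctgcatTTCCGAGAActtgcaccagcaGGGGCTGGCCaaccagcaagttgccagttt
Crp: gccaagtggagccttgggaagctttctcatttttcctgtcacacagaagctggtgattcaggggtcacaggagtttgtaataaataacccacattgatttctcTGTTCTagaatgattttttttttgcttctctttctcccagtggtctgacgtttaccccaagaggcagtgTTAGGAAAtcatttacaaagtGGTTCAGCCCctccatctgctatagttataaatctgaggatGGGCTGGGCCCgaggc

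The Orm2 window held 2 matches to the C/EBP core, at -120 to -113 and at -108 to -101 from the start, after a glucocorticoid element core at -128 to -123. In the Apcs window a STAT element at -244 to -236 and 2 type 2 interleukin 6 elements at -129 to -123 and -52 to -46 were found, together with a glucocorticoid element core at -169 to -164. Itih4 carried a STAT element at -51 to -43. Among the 7 windows the C/EBP core was present in 4 (36.8% of all 32851 promoter windows), the STAT element in 2 (7.02%), the type 2 element in 1 (9.1%), the NF-kB element in 3 (45.8%) and the glucocorticoid element core in 4 (16.1%). The windows of Orm3, Serpina3n and Itih3 run partly into the gene model, and their matches are included in these counts. Matches to the NF-kB element on opposite strands overlapped by all but 1 base in Serpina3n and Crp. The Itih3 window held none of these letters. Between Orm2 and Orm3, 218 of 255 aligned positions (85.5%) were identical. A match describes the letters of the window and is not evidence that a factor binds there.

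LPS raised the RNA of 8 of the 8 tested genes in KO livers and of 7 in IDA livers, and lowered none. Levels are log2 intensities after background correction and quantile normalization, on which a difference of 1 is a doubling, and differences are log2 ratios fitted by limma over all 16286 detected probes. A gene was counted by its brightest probe and called at a Benjamini-Hochberg adjusted p under 0.05. The gene not called in IDA livers was Hp by probe 1 (adjusted p = 0.334), while Hp probes 2 and 3 were called higher there. By probe, 13 of 13 were higher in KO livers, where 9.66% of all tested probes were called higher (17.8% in either direction, and 19% of genes by brightest probe), and 12 of 13 in IDA livers, where 21.4% were (46.7% in either direction, and 49.1% of genes). The median log2 ratio of the 8 genes was 1.16 in KO and 1.20 in IDA livers, beside -0.04 in KO and -0.06 in IDA livers over all probes. On all 13 probes the normalized values of the 6 LPS-treated livers lay above those of the 6 untreated livers without overlap, which held for 9.89% of all tested probes. The raw signals of Itih3 did overlap. KO LPS 3 read 27977 units on its brighter probe and 7709 on its second, against 30687 and 8099 in KO UT 2.

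**Figure D1:**
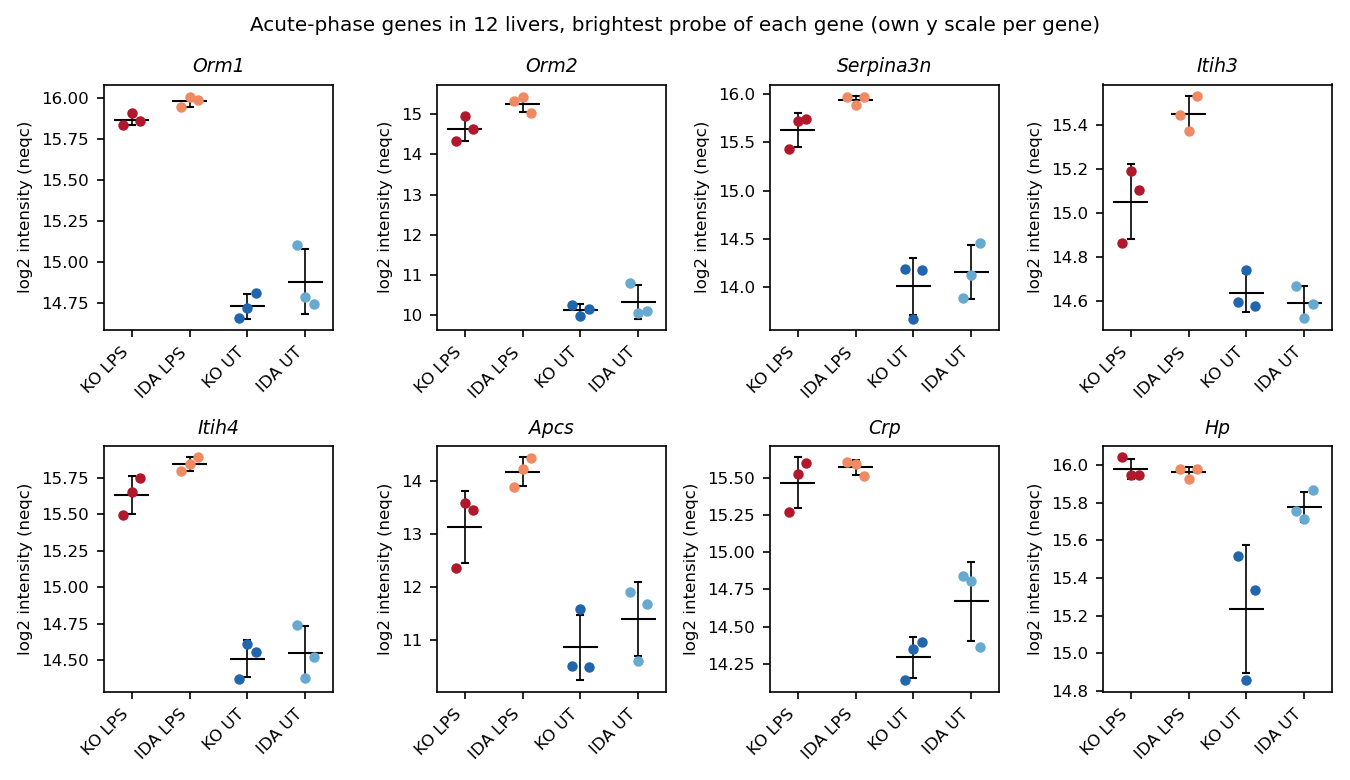
Log2 intensity (y axis, own scale for each gene) of the brightest probe of 8 acute-phase genes in KO LPS, IDA LPS, KO UT and IDA UT livers; points are single livers, horizontal lines the group means and bars the SD (n = 3). In each gene the 6 LPS-treated livers lie above the 6 untreated livers.

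Orosomucoid binds basic and lipophilic ligands in plasma. Orm2 stood at log2 intensities of 14.33, 14.95 and 14.64 in KO LPS livers and at 15.33, 15.42 and 15.04 in IDA LPS livers. In untreated livers it stood at 10.26, 9.99 and 10.17 in KO and at 10.81, 10.06 and 10.10 in IDA mice. The LPS-treated and untreated livers lay far apart, and IDA UT 1 was the highest of the untreated ones. The ratio to untreated livers was 22.6-fold in KO livers (log2 4.50, SE 0.21, adjusted p = 2.1e-07, limma) and 30.7-fold in IDA livers (log2 4.94, SE 0.21, adjusted p = 3.9e-08). These were the largest LPS ratios among the 13 probes.

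Orm1 was bright already without LPS. It read 15.83, 15.91 and 15.86 in KO LPS livers, 15.94, 16.01 and 15.99 in IDA LPS livers, 14.66, 14.72 and 14.81 in KO UT livers and 15.10, 14.79 and 14.74 in IDA UT livers. LPS raised it 2.20-fold in KO livers (log2 1.14, SE 0.11) and 2.15-fold in IDA livers (log2 1.10, SE 0.11). After LPS its raw signal reached 83.1% to 96.7% of the highest signal on the same array, so that little range remained above it. Orm3 stayed between 88.9 and 112.9 raw units on all 12 arrays, below detection, also in livers where the Orm2 probe read up to 40876. Probe sequences were not used here, and how far the Orm1 and Orm2 probes each take up RNA of the other paralog was not tested.

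Serpina3n, an inhibitor of chymotrypsin-like proteases, had log2 intensities of 15.43, 15.72 and 15.74 in KO LPS and 15.96, 15.89 and 15.96 in IDA LPS livers. Its untreated levels were 14.19, 13.67 and 14.17 in KO and 13.89, 14.13 and 14.45 in IDA livers. The LPS ratio was 3.07-fold in KO (log2 1.62, SE 0.17, adjusted p = 9.04e-05) and 3.44-fold in IDA livers (log2 1.78, SE 0.17, adjusted p = 8.4e-06). Of 12 tested relatives of the family, 2 rose after LPS in KO livers, where 19% of all genes were called by brightest probe. In IDA livers, where 49.1% were called, 4 rose and 1 fell. Serpina3f was among those that rose in both, by log2 3.17 in KO and 3.70 in IDA livers. Serpina3i rose in IDA livers by 1.30, with a ratio of 0.01 in KO livers (adjusted p = 0.982).

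The inter-alpha-trypsin inhibitor family includes heavy chains, such as Itih3, that are linked to hyaluronan in the extracellular matrix. Itih4, measured with 3 probes, rose by log2 1.12, 1.16 and 1.56 in KO livers and by 1.30, 1.30 and 1.79 in IDA livers. Probe 1, the brightest, read 72.6% to 78.3% of the highest signal on the array in KO LPS and 78.3% to 89.8% in IDA LPS livers. Itih3 showed the smallest LPS ratio of any member in KO livers. Its brighter probe read 14.86, 15.19 and 15.10 in KO LPS, 15.45, 15.38 and 15.54 in IDA LPS, 14.60, 14.74 and 14.58 in KO UT and 14.67, 14.52 and 14.59 in IDA UT livers. The log2 ratio was 0.41 in KO (SE 0.11, adjusted p = 0.0272) and 0.86 in IDA livers (SE 0.11, adjusted p = 8.91e-05), and the second probe gave 0.52 in KO and 0.96 in IDA livers. The call in KO livers rested on few livers: without the 3 Xist-positive livers the brighter probe gave 0.47 (adjusted p = 0.158) and the second probe 0.62 (adjusted p = 0.0884). Leaving out KO LPS 2, KO LPS 3, KO UT 1 or KO UT 3 alone also ended the call of the brighter probe, with ratios of 0.35 to 0.39, and leaving out KO LPS 2 that of the second (0.44, adjusted p = 0.0505). With median scaling the ratio in KO livers was 0.26 (adjusted p = 0.235) on the brighter and 0.38 (adjusted p = 0.0974) on the second probe.

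Pentraxins bind microbial surfaces and nuclear debris and recruit complement. Apcs read 12.36, 13.60 and 13.47 in KO LPS, 13.90, 14.23 and 14.43 in IDA LPS, 10.52, 11.58 and 10.50 in KO UT and 11.92, 10.61 and 11.68 in IDA UT livers. It rose 4.84-fold in KO (log2 2.28, SE 0.41, adjusted p = 0.0028) and 6.89-fold in IDA livers (log2 2.78, SE 0.41, adjusted p = 0.000188), the second largest ratios of the set. It was also the member that varied most within groups, with SDs of 0.27 to 0.70 against 0.01 to 0.42 for the other tested probes. Crp probe 1 read 15.27, 15.53 and 15.60 in KO LPS, 15.61, 15.59 and 15.52 in IDA LPS, 14.14, 14.35 and 14.39 in KO UT and 14.84, 14.81 and 14.36 in IDA UT livers. Crp rose 2.26-fold in KO (log2 1.18, SE 0.15) and 1.87-fold in IDA livers (log2 0.90, SE 0.15). The second Crp probe, designed on another transcript record, stayed below detection throughout.

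Haptoglobin binds free haemoglobin in plasma. Its 3 probes rose by log2 0.74, 1.22 and 1.21 in KO livers (adjusted p = 0.00505, 9.24e-05 and 0.000198) and differed by 0.18, 0.51 and 0.54 in IDA livers (adjusted p = 0.334, 0.0079 and 0.00931). After LPS the raw signal of each probe stood at 87.4% to 100% of the highest signal on its array in both genotypes. In untreated livers probe 1 already stood at 82.6% or more of that highest signal in IDA mice, but at 49.0% or more in KO mice. The Hp ratios are thus measured against the top of the signal range, and how much a ceiling takes off them was not tested.

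**Figure D2:**
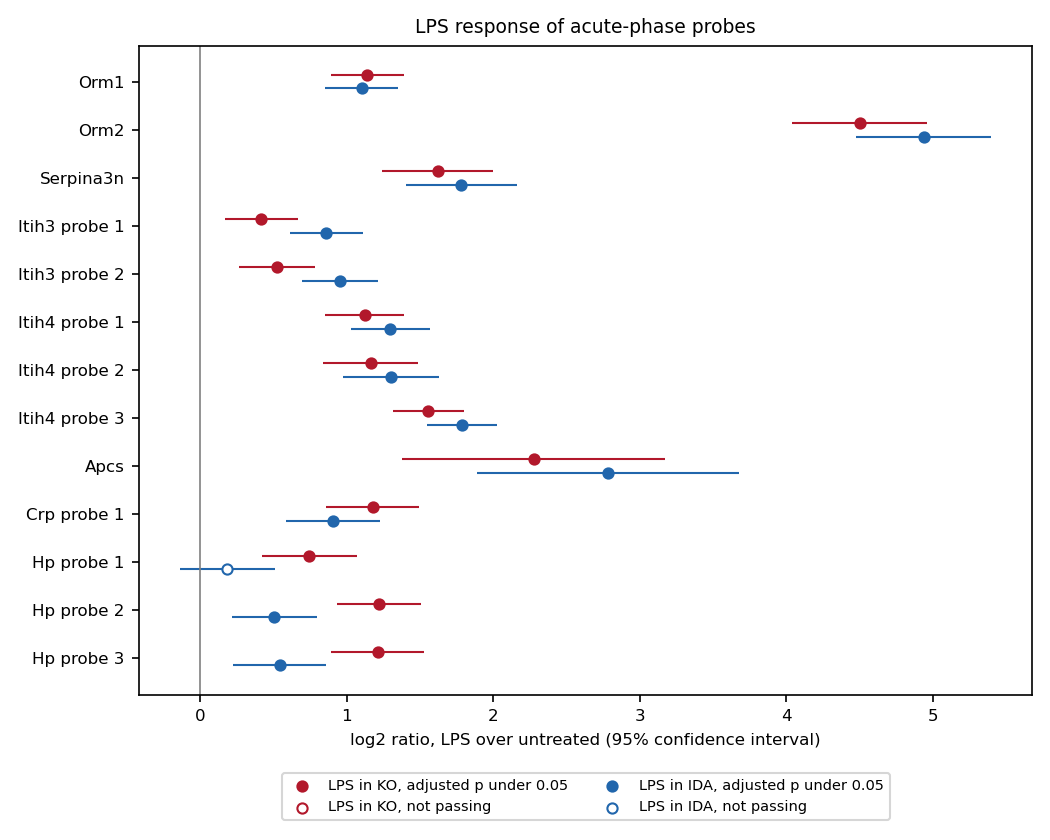
Log2 ratio of LPS-treated over untreated livers (x axis) with 95% confidence interval for the 13 tested probes, in KO (red) and IDA (blue) livers, n = 3 livers a group; filled points have an adjusted p under 0.05. All 13 ratios are positive in both genotypes, from 0.41 to 4.50 in KO and from 0.18 to 4.94 in IDA livers.

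**Figure D3:**
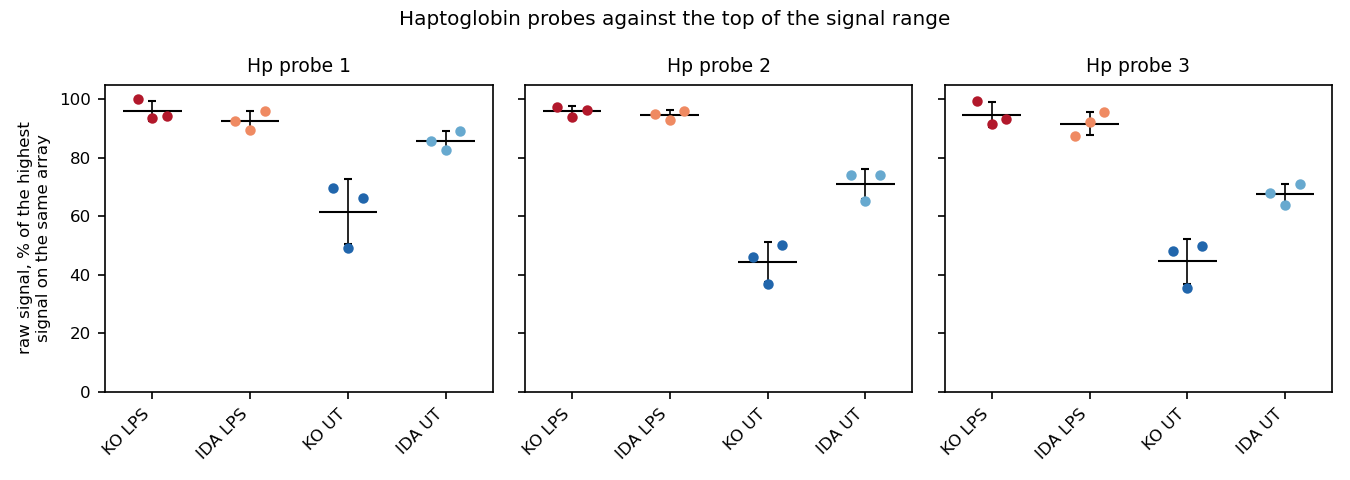
Raw signal of the 3 Hp probes as percent of the highest signal on the same array (y axis) in each liver, with group mean and SD (n = 3). After LPS all points lie between 87.4% and 100%, whereas untreated KO livers lie below untreated IDA livers on each probe.

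After LPS, KO livers had less Orm2 and less Itih3 RNA than IDA livers, and the other 6 genes did not pass the test on their brightest probe. Itih4 passed on probe 3, which is not its brightest. Of the 13 probes 0 were higher and 4 lower in KO livers, beside 28.9% of all tested probes called in this comparison and 13.4% called lower (30.3% of genes by brightest probe). The share of members called in either direction was therefore close to the background. The median log2 ratio of the 8 genes was -0.26, against 0.02 over all probes. On 9 of 13 probes every KO LPS liver lay below every IDA LPS liver, which held for 21.6% of all tested probes; the exceptions were Crp probe 1 and the 3 Hp probes.

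Orm2 RNA in KO LPS livers was 64.9% of that in IDA LPS livers (log2 -0.62, SE 0.21, adjusted p = 0.0453). The normalized values did not overlap, but the raw signals did, with 20957 to 32033 units in KO LPS against 30536 to 40876 units in IDA LPS livers. Omission of any of 8 livers ended this call: KO LPS 1, KO LPS 3, each of the IDA LPS and each of the KO UT livers. The ratio then lay between -0.73 and -0.47. Itih3 stood at 75.8% (log2 -0.40, SE 0.11, adjusted p = 0.022) on the brighter probe and at 71.4% (log2 -0.49, SE 0.12, adjusted p = 0.0106) on the second one. The call of the brighter probe was lost without KO LPS 1, IDA LPS 1 or IDA LPS 3, at ratios of -0.40 to -0.30. Of the 3 Itih4 probes only probe 3 was called lower, at 14.89, 14.88 and 14.71 in KO LPS and 15.37, 15.15 and 15.40 in IDA LPS livers (log2 -0.48, SE 0.11, adjusted p = 0.00784). With median scaling in place of quantile normalization, Orm2 (-0.56, adjusted p = 0.0871), the brighter Itih3 probe (-0.36, adjusted p = 0.0726) and Itih4 probe 3 (-0.43, adjusted p = 0.0518) all missed the threshold, and the second Itih3 probe passed it (-0.42, adjusted p = 0.0464). Itih4 probes 1 and 2 gave -0.21 (adjusted p = 0.224) and -0.32 (adjusted p = 0.129).

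The widest difference of a member, that of Apcs, did not pass in the fit of all 12 arrays. Its RNA in KO LPS livers was 48.5% of that in IDA LPS livers, with a log2 ratio of -1.04, a 95% confidence interval of -1.94 to -0.15 and an adjusted p of 0.0761. KO LPS 1, at 12.36, stood apart from the other KO livers, at 13.47 and 13.60, and without it the Apcs ratio was -0.65 (adjusted p = 0.27). Apcs passed the threshold in a fit on the LPS-treated livers alone (adjusted p = 0.0431), in which the brighter Itih3 probe missed it (adjusted p = 0.0562), and without IDA UT 2 (adjusted p = 0.0483). Serpina3n differed by -0.31 (adjusted p = 0.206), Orm1 by -0.11 (adjusted p = 0.489) and Crp by -0.10 (interval -0.42 to 0.22). In IDA LPS livers Serpina3n stood at 86.2% or more and Orm1 at 89.8% or more of the highest signal on the array. The Hp probes differed by 0.02, -0.03 and 0.00, close to the top of the signal range in both groups.

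**Figure D4:**
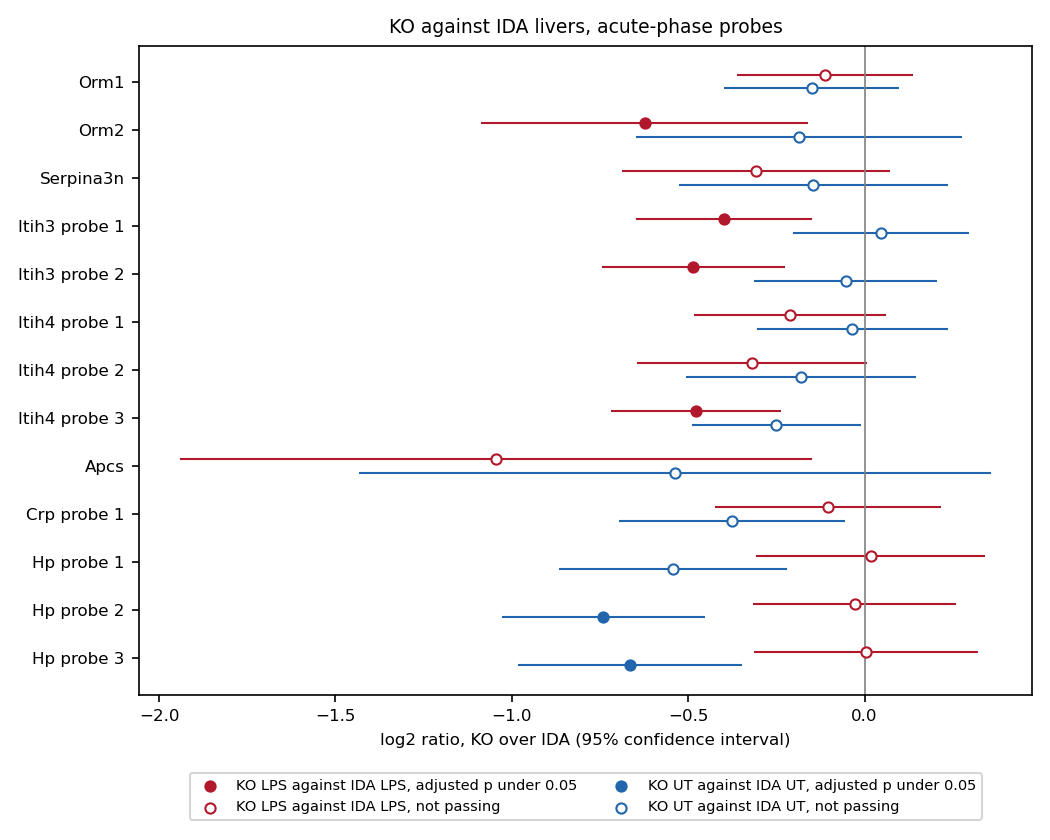
Log2 ratio of KO over IDA livers (x axis) with 95% confidence interval for the 13 tested probes, after LPS (red) and untreated (blue), n = 3 livers a group; filled points have an adjusted p under 0.05. After LPS the filled points are Orm2, both Itih3 probes and Itih4 probe 3, and in untreated livers they are Hp probes 2 and 3.

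Without LPS, no member gene was called between KO and IDA livers by its brightest probe, and the member probes that were called were Hp probes 2 and 3. Hp probe 2 read 14.88, 14.45 and 14.92 in KO UT and 15.50, 15.36 and 15.61 in IDA UT livers, and probe 3 read 14.95, 14.38 and 14.91 in KO UT and 15.33, 15.35 and 15.55 in IDA UT livers. The groups did not overlap on either probe. KO livers had 59.8% of the IDA level on probe 2 (log2 -0.74, SE 0.13, adjusted p = 0.0179) and 63.1% on probe 3 (log2 -0.66, SE 0.15, adjusted p = 0.0377). Probe 1, the brightest, gave a log2 ratio of -0.54 (SE 0.15, adjusted p = 0.0812). By probe 0 members were higher and 2 lower, and by brightest probe 0 of 8 genes were called, beside 2.43% of all tested probes (0.915% called lower) and 2.3% of genes. On 4 of 13 probes, the 3 of Hp and Itih4 probe 3, every KO UT liver lay below every IDA UT liver, against 11.2% of all probes. Without the 3 Xist-positive livers, which leaves 1 KO UT liver whose spread is taken from the other groups, the ratios of probes 2 and 3 were -0.57 (adjusted p = 0.198) and -0.55 (adjusted p = 0.216). With those livers kept and a term for Xist added, probe 2 was still called (-0.70, adjusted p = 0.0393) and probe 3 was not (-0.60, adjusted p = 0.0782). Omission of IDA UT 3 alone also ended the call of probe 2 (log2 -0.68, adjusted p = 0.0743), and omission of any of 9 livers (all but IDA LPS 2, KO UT 1 and IDA UT 1) that of probe 3, at ratios of -0.75 to -0.48. A fit on the untreated livers alone gave adjusted p of 0.102 and 0.152 for probes 2 and 3.

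The other 7 genes had log2 ratios of -0.54 (Apcs) to 0.05 (Itih3) in untreated livers, with adjusted p of 0.211 to 0.918. In Apcs the values of both groups spanned more than 1 log2 unit, and its ratio lay between -0.93 (without IDA UT 2) and -0.28 (without IDA UT 1) when single livers were left out. Crp gave -0.38 (interval -0.70 to -0.06, adjusted p = 0.211), and Orm2 -0.19 (interval -0.65 to 0.28). IDA UT 1, 1 of the Xist-positive livers, was the highest of its group on 9 of 13 probes, and IDA UT 2 was the lowest on 8. Among LPS-treated livers, KO LPS 1 was the lowest of its group on 8 probes and IDA LPS 3 the highest on 8.

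The difference between the LPS responses of KO and IDA livers was tested as the interaction. Of the 13 probes 1 was called, Hp probe 2, and of the 8 genes by brightest probe 0, while 9.81% of all tested probes were called (4.75% in the positive direction) and 10.7% of genes. The LPS ratio of Hp probe 2 was 1.22 in KO and 0.51 in IDA livers, a difference of 0.71 (SE 0.19, adjusted p = 0.0338). After LPS both groups stood at 15.96 to 16.02 on this probe. Their small SDs, 0.01 in KO LPS and 0.02 in IDA LPS livers, enter the pooled SE of this difference. Without the 3 Xist-positive livers the difference was 0.54 (adjusted p = 0.159), with a term for Xist 0.67 (adjusted p = 0.0534) and with median scaling 0.70 (adjusted p = 0.0602), and omission of any 1 of 8 livers also ended the call (0.65 to 0.72). Probe 3 gave a difference of 0.67 (adjusted p = 0.0634) and probe 1 one of 0.56 (adjusted p = 0.116). For the remaining genes the differences were 0.27 for Crp, 0.04 for Orm1, -0.16 for Serpina3n, -0.18 for Itih4, -0.44 for Orm2, -0.44 for Itih3 (adjusted p = 0.106) and -0.51 for Apcs. The Apcs difference was -0.12 without KO LPS 1, -0.15 without KO UT 2, -0.11 without IDA UT 2 and -0.76 without IDA UT 1. The interval of the Orm2 difference, -1.09 to 0.22, was wide. A smaller LPS response of Orm2, Itih3 or Apcs in KO livers was thus not called, and the intervals of Orm2 and Apcs also include 0.

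Other acute-phase genes were read from a list of 26, of which 21 were tested. After LPS 13 rose and 0 fell in KO livers, and 16 rose and 0 fell in IDA livers, with median log2 ratios of 0.92 in KO and 1.96 in IDA livers. Called in either direction were 19% of all genes by brightest probe in KO and 49.1% in IDA livers. Saa3, a serum amyloid A, rose by 7.85 in KO and 8.30 in IDA livers, Saa2 by 6.69 in KO and 7.09 in IDA livers, and Lcn2, which binds bacterial siderophores, by 6.77 in KO and 6.48 in IDA livers. Each of these exceeded the ratio of Orm2. In KO LPS against IDA LPS livers 30.3% of all genes by brightest probe were called, and 13.4% of all probes were called lower. Of the 21 genes 6 were lower and 0 higher. They were the endotoxin receptor Cd14 (-2.23), the interleukin 1 antagonist Il1rn (-1.90), the metallothionein Mt2 (-1.50), the metalloreductase Steap4 (-1.24), the fibrinogen chain Fgb (-0.84) and Lbp (-0.83), which carries endotoxin to Cd14. The interaction was called for 4, namely Hamp (hepcidin), Cd14, Il1rn and Steap4, all in the negative direction, beside 10.7% of all genes by brightest probe. Hamp was the only 1 of the 21 called in untreated livers, where it was higher in KO mice (8.46, adjusted p = 0.000522, limma). After LPS its KO against IDA ratio was 1.99 (adjusted p = 0.0535). The untreated ratios of Cd14 (0.28), Il1rn (0.13) and Steap4 (-0.07) were not called. Among the Serpina3 relatives, Serpina3i (-1.41), Serpina3f (-1.30) and Serpina10 (-0.59) were lower in KO LPS livers.

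Of 19 tested genes of interleukin 6 and interleukin 1 signalling, 7 were lower and 0 higher in KO LPS than IDA LPS livers. The list also holds inhibitors such as Socs3, and 30.3% of all genes by brightest probe were called in this comparison. The NF-kB co-regulators Nfkbiz (-2.75) and Bcl3 (-2.02), the receptor Il1r1 (-1.98) and the STAT3 inhibitor Socs3 (-1.46) had the largest ratios, and Il6ra, Osmr and Stat3 gave -0.78, -0.77 and -0.48. In untreated livers Il1r1 (-1.24), Il6ra (-0.88) and Hnf4a (-0.52), a hepatocyte transcription factor, were lower in KO mice. These were 3 of the 19, beside 2.3% of all genes by brightest probe. Of 14 tested glucocorticoid-responsive genes 3 were higher and 2 lower in KO LPS livers. All of these lists overlap with the biology of the members and were chosen with earlier results known.

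Markers of other cells were read from the same comparison, in which 30.3% of all genes by brightest probe were called (2.3% without LPS). Of 14 neutrophil markers 7 were tested, and 4 of these were lower in KO LPS livers, with a summed intensity of 3664 to 8678 in KO LPS, 14952 to 19118 in IDA LPS, 932 to 1360 in KO UT and 666 to 2032 in IDA UT livers. Mpo, Elane, Ngp, Camp, Mmp8 and Itgam were below detection in every group, and Ly6g has no probe under its symbol. Kupffer cell and macrophage markers were higher in KO LPS livers for 10 of 12 tested, at sums of 8215 to 12715 in KO LPS against 5571 to 7403 in IDA LPS livers. Endothelial and stellate markers were also higher in KO LPS livers, for 6 of 12 and 4 of 12. Hepatocyte markers were higher for 2 of 12, at sums of 392414 to 407813 in KO LPS against 383931 to 394267 in IDA LPS livers. Erythroid markers were higher for 3 of 5 tested, at sums of 59794 to 74092 in KO LPS against 26092 to 46753 in IDA LPS livers. Without LPS 0 of these 5 were called, at sums of 43394 to 94375 in KO UT against 18523 to 32827 in IDA UT livers. Sox9, the 1 bile duct marker tested, was lower, at 340 to 558 in KO LPS against 974 to 1328 in IDA LPS livers. The part of these cells in the differences of Orm2, Itih3 and Itih4 was not tested.

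Over the 12 livers the members followed each other. Pearson's r between the brightest probes of 2 genes was 0.53 to 0.99 over 28 pairs (median 0.92), and the 7 pairs with Hp had the lowest values, at 0.53 to 0.76. The points share the treatment groups, so that any gene that responds to LPS correlates with the members. The highest was that of Orm1 with Orm2 (0.99). Among 6725 other genes detected on all arrays, those most like the mean of the 8 standardized members were Psmb8 (r = 0.995), Cxcl9 (0.994), Snx10 (0.993), Gbp2 (0.993) and Igtp (0.990). Nearest to Orm2 were Igtp, Saa3 and Cxcl9 (each 0.996), and nearest to Orm1 were Saa1 (0.995), Cxcl9 (0.994) and Plac8 (0.992). Hp, read here by probe 1 only, had no such close neighbour, with Nat8f2 (0.905), Nat8f4 (0.900) and Mcfd2 (0.889) at the head of its list. Probe 1 stood at 82.6% or more of the highest signal on the array in IDA UT and at 89.4% or more in IDA LPS livers. Hp probes 2 and 3 were not used for these correlations, and the part of the ceiling in the lower r of Hp was not tested.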

How the data were processed

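Liver RNA was labelled and hybridized by the authors to Illumina BeadChips, 6 samples a chip with the chip of each liver not given in the sources used here, and read with GenomeStudio (version not given). The deposited bead signal averaged for each probe, an intensity without normalization, was used with the deposited detection p-value; the authors' cubic-spline normalized intensities served as an alternative. Of 45281 probes 34885 have 1 gene symbol, 18 several and 10378 none, and 0 columns were left unused.

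Background correction, quantile normalization and the log2 step were done by neqc with offset 16 (limma 3.58.1, R 4.3.3, statmod 1.5.0), and probes were kept where detected at p under 0.01 on at least 1 array (16286 probes). The 4 group means were estimated in a single limma fit of the 12 arrays, with Benjamini-Hochberg adjustment in each of 5 contrasts. With 3 livers against 3 an exact permutation test cannot go below p = 0.1, so that limma's moderated test was used. Precision is limited by the number of arrays. Promoter windows are RefSeq's (GRCm38.p6). Figures were drawn with matplotlib 3.10.9 (Python 3.11.15).

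The members and gene lists were chosen with earlier results of these data known. Named were all member probes, by rule the most similar genes, and up to 4 genes per list and contrast; Fgb, Lbp, Il6ra, Osmr, Stat3, Sox9 and the undetected markers were named after their values were seen.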

Additional observations from a re-analysis of the deposited data

Results flagged for a closer look

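The LPS ratio of Hp probe 2 differed between the genotypes by 0.71 on the log2 scale (1.22 in KO and 0.51 in IDA livers, adjusted p = 0.0338 by the interaction test of limma). This was the only member probe called in that test, beside 9.81% of all probes. After LPS the probe read 92.9% or more of the highest signal of the array in every liver, and log2 intensities without LPS were 14.45 to 14.92 in KO UT livers, against 15.36 to 15.61 in IDA UT livers. The call was lost without the 3 Xist-positive livers (0.54, adjusted p = 0.159), and the ceiling's part in it was not tested.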

How the results depend on the processing

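The count of member genes higher after LPS was 7 to 8 in KO and 7 in IDA livers under the alternatives run, Itih3 being the gene lost, except that 6 in KO and 5 in IDA livers were left when a log2 ratio over 1 was also asked for. For KO LPS against IDA LPS the count of 2 fell to 0 with median scaling, 1 with no filter on dim probes, 1 with the replicate number as a block and 0 with a log2 ratio over 1 asked for, and was 0 to 3 when single livers were left out. In a fit on the compared groups alone it stayed 2, with Apcs gained and Itih3, by its brighter probe, lost. For KO UT against IDA UT the count of 0 became 1 with the authors' intensities and 1 with trended, robust moderation, and was 0 to 1 without single livers; each time Hp was called lower. For the interaction the count of 0 became 1 with the authors' intensities (Hp) and 1 with trended, robust moderation (Itih3), and stayed 0 without single livers. A fit on the compared groups alone equals the main one for the interaction, so it has no entry there.

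Some ratios that were not called changed sign. Without the 3 Xist-positive livers Orm1 (0.0442), Orm2 (0.0802) and Itih4 probe 1 (0.11) did so in untreated livers, and Orm1 in the interaction (-0.16). Without single livers the untreated ratios ranged from -0.32 to 0.0544 for Orm2, -0.28 to 0.0234 for Serpina3n, -0.0034 to 0.086 for Itih3 probe 1 and -0.12 to 0.064 for Itih4 probe 1. The interaction of Orm1 ranged from -0.0785 to 0.11, and the KO against IDA ratio after LPS from -0.0146 to 0.0345 for Hp probe 1 and from -0.0244 to 0.0219 for Hp probe 3.

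The deviations of same-numbered livers from their group means correlated at r from -0.11 to 0.24. Differently numbered livers were not compared, so these values cannot decide whether same-numbered livers belong together. The numbers were not taken as pairs in the main fit. With the replicate block 4593 of 16286 probes were called in KO LPS against IDA LPS livers, against 4713 without it, and Orm2 missed the threshold (adjusted p = 0.0608). Median scaling raised the share of higher calls from 53.5% to 66.7% in KO LPS against IDA LPS and from 62.3% to 72.0% in KO UT against IDA UT livers. The cause of these changes was not tested. Hp, Orm1, Serpina3n and Itih4 probe 1 had signals near the top of the range after LPS, and how far this limits their ratios was not tested.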
